A study of Mus musculus with 12 samples.

Results

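A panel of 10 genes that mark the differentiation and mature functions of astrocytes was followed in cultured mouse neural progenitor cells (mNPCs) with and without an interrupted copy of Kmt2a. They are Gfap, Aqp4, S100b, Aldh1l1, Aldoc, Slc1a2, Gja1, Apoe, Clu and Agt. The genes were chosen by name as an astrocyte panel, with earlier results of these data known. They were found by matching the Ensembl identifiers of the count table to GRCm38 symbols. All 10 were present among 18911 genes and all 10 passed the filter on low counts that left 17076 genes for testing. Polyadenylated RNA was sequenced from 12 libraries, 3 for each of 4 genotypes, all on C57BL/6J and all cultured from the hippocampus of P0 pups in Neurobasal medium with B27, FGF-2, EGF and heparin. Kmt2a+/+ cells carried 2 intact alleles of Kmt2a, which encodes a histone methyltransferase mutated in Wiedemann-Steiner syndrome. In Kmt2a+/LSL cells one allele holds a stop cassette between loxP sites (LSL) in its first intron, where transcription ends early. Nes-Cre+/- Kmt2a+/LSL cells also carried nestin-Cre, a recombinase that removes the cassette during gestation only in cells that use the nestin promoter, and Nes-Cre+/- Kmt2a+/+ cells carried nestin-Cre without any cassette and are the nestin-Cre controls. The study describes the libraries of a genotype as biological replicates, and the labels give each a number and a genotype but not whether they came from separate animals or cultures, so every p-value measures the spread between these libraries.

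Astrocytes arise from radial glia and progenitor cells after the main period of neurogenesis, when signals of the JAK-STAT, BMP and Notch pathways and nuclear factor I proteins open and switch on astrocyte genes. FGF and EGF in the medium keep progenitor cells dividing, and part of the astrocyte programme, including glutamate uptake, lipid carriage and glycolytic enzymes, is shared with hippocampal radial glia-like stem cells. Gfap marks radial glia-like stem cells of the hippocampus as well as astrocytes, and Aqp4 is used as a sign of later maturation. In bulk RNA, fewer astrocyte-like cells in a culture and less RNA of these genes per cell cannot be told apart.

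Estimated counts summed to between 18280008 and 28596919 per library, so that 3 counts correspond to 0.105 to 0.164 CPM, the unit used here for counts divided by the library total after scaling by edgeR's TMM factors. Every member lay far above this limit, the lowest value being 7.14 CPM for Aqp4 in Kmt2a+/+ replicate 1. Kmt2a itself, the check of the genotype labels, was at 289, 300.3 and 281 CPM in Kmt2a+/+ and at 166, 166 and 167 CPM in Kmt2a+/LSL. The nestin-Cre libraries were at 283, 310.0 and 299 CPM without the cassette and 273, 284 and 259 CPM after its removal. The Kmt2a+/LSL libraries were thus below the other 9, as their labels say, although the difference from Kmt2a+/+ did not pass the test (log2 fold change −0.80, SE 0.13, adjusted p = 0.281 in edgeR's quasi-likelihood test). Kmt2a+/+ replicate 1 stood apart from every other library: across genes its log2 CPM had a Pearson correlation of 0.907 and 0.899 with the other Kmt2a+/+ replicates, against 0.964 to 0.985 for all other pairs within a genotype. Relative to the 9 libraries of the other genotypes, and with genes divided into 5 equal classes by GC content, its median log2 difference was 0.77 in the class of lowest GC and −1.61 in the class of highest GC. Measured in the same way, the lowest and highest classes were at −0.46 and 0.38 in Kmt2a+/+ replicate 3 and at −0.18 and 0.16 in replicate 2. Kmt2a+/+ replicate 1 also had the highest level of the proliferation marker Mki67, 1429 CPM against 206 in Kmt2a+/+ replicate 2 and 342 to 707 in the other 10 libraries. Comparisons of the astrocyte genes and of related gene lists with Kmt2a+/+ are therefore also given without replicate 1 or replicate 2.

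Markers of other cell types show what the cultures held beside astrocyte genes. Neural progenitor markers were all detected, led by Fabp7, a fatty acid-binding protein of radial glia, at 2430.1 to 8959.9 CPM, and by the growth factor receptor Egfr at 988 to 1515 CPM. Oligodendrocyte lineage markers were also present, with the transcription factor Olig1 at 705 CPM in Kmt2a+/+ replicate 1 and 2565 to 4144 CPM in the other 11 libraries, whereas Mog of mature oligodendrocytes stayed at or below 0.285 CPM. Map2 was high among the neuron markers at 979.8 to 1874 CPM, and Prox1, a transcription factor of dentate granule cells, was at 45.1 to 76.5 CPM. The newborn neuron marker Dcx was at 6.28 to 19.7 CPM, Tubb3 at 3.03 to 28.2 CPM and the synaptic gene Snap25 at 3.82 to 16.2 CPM, while Rbfox3, Stmn2 and Neurod1 stayed at or below 2.503 CPM. Microglia markers summed to 0.996 to 2.97 CPM and choroid plexus markers to 0.516 to 1.505 CPM. The microglia gene P2ry12 was at 1.249 CPM in Kmt2a+/+ replicate 1 and at or below 0.650 CPM elsewhere, and Cx3cr1, Csf1r, Kcnj13 and Folr1 stayed at or below 0.502 CPM in all 12 libraries. Fibroblast markers summed to 0.952 to 5.05 CPM, endothelial and pericyte markers to 6.75 to 19.0 CPM, and ependymal markers to 6.72 to 39.0 CPM, most of it the ciliogenesis factor Foxj1. Per kilobase of exon, the median of the 10 astrocyte genes was 34.2 CPM, below the 57.1 CPM of the progenitor markers and above the 7.56 CPM of the oligodendrocyte lineage and 0.932 CPM of the neuron markers. A list of 26 further astrocyte genes, described below, had a median of 96.7 CPM per kilobase, above that of the progenitor markers. The order of astrocyte and progenitor genes thus depended on which astrocyte genes were listed.

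**Figure D1:**
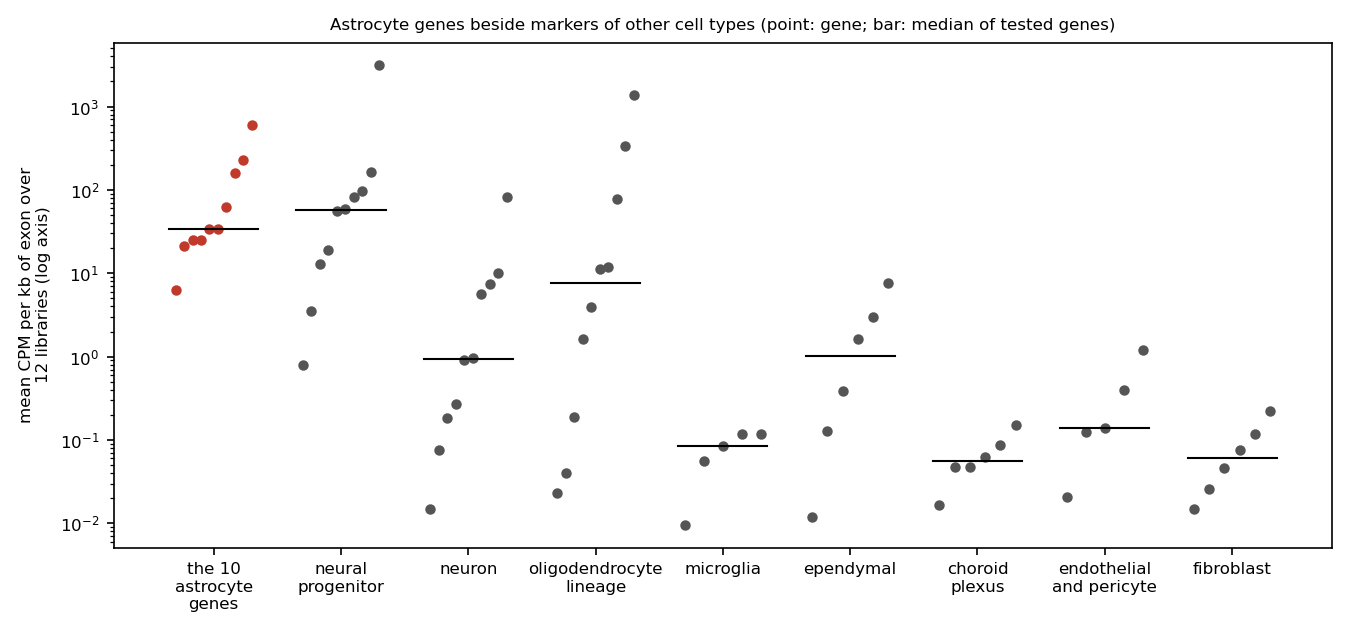
Mean level of each gene over 12 libraries, in CPM per kilobase of exon on a log axis, for the 10 astrocyte genes (red) and for marker lists of other cell types (grey); each point is 1 tested gene and each bar the median of its list. The astrocyte genes lie between 6.24 and 605 CPM per kilobase, while every tested microglia, choroid plexus and fibroblast marker lies below 0.3.

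Levels of different genes were compared only per kilobase of exon. Apoe, the main lipid carrier of the brain, was the highest of the 10 at 605 ± 378 CPM per kilobase (mean ± SD over 12 libraries). The glycolytic enzyme gene Aldoc followed at 229 ± 87.8 and the folate enzyme gene Aldh1l1 at 159 ± 49.2, and this order of the first 3 places held in all 12 libraries. Slc1a2, which encodes the astrocyte glutamate transporter, came next at 62.7 ± 19.6 CPM per kilobase and lay below Aldh1l1 in 12 of 12 libraries. The next 5 genes were close together: Gfap at 34.4 ± 24.7, Agt at 34.0 ± 11.1, Clu at 25.0 ± 8.79, S100b at 24.8 ± 5.501 and Gja1 at 21.4 ± 6.56. Gfap exceeded Agt in only 6 of 12 libraries, Clu exceeded S100b in 4 and S100b exceeded Gja1 in 8, so these neighbours did not differ beyond their spread. Agt exceeded Clu in 11 libraries and Slc1a2 exceeded Gfap in 11. Aqp4, the water channel of astrocyte endfeet, was the lowest at 6.24 ± 5.07 CPM per kilobase, below Gja1 in all 12 libraries. The middle of the order depends on the length used, since with the longest transcript in place of all exons 6 of 10 genes kept their place and Gja1, whose annotated exons are much longer than its longest transcript, moved above Gfap.

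**Figure D2:**
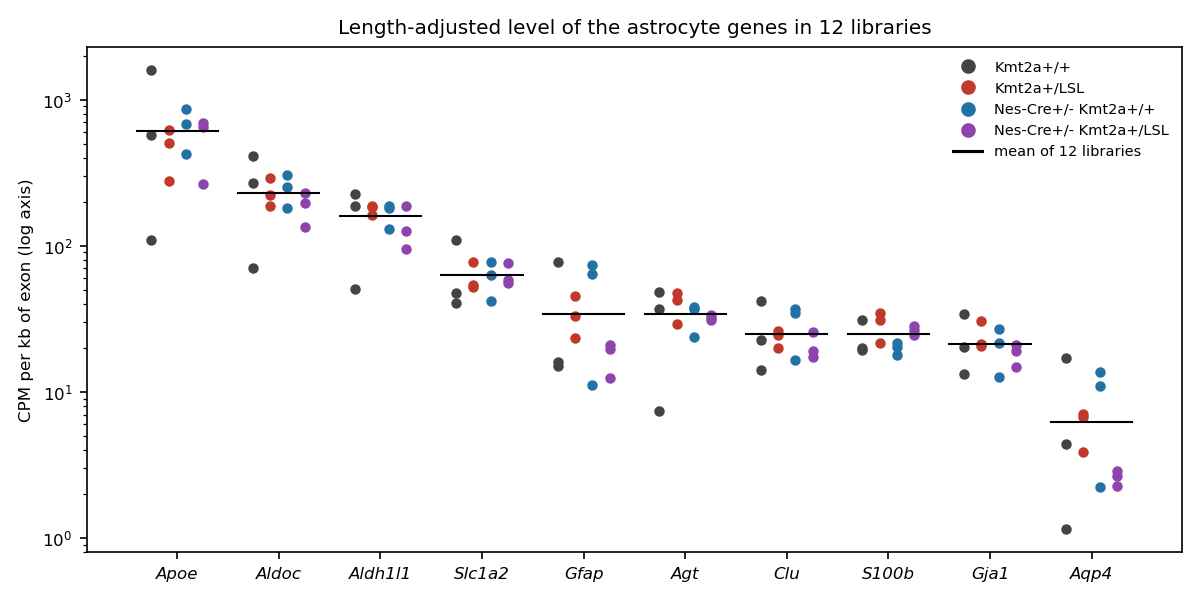
Level of the 10 genes in CPM per kilobase of exon on a log axis, ordered by their mean over 12 libraries; each point is a library, coloured by genotype. Apoe, Aldoc, Aldh1l1 and Slc1a2 stand above the rest, 5 genes from Gfap to Gja1 overlap, and Aqp4 is lowest.

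Relative to their own levels, Gfap and Aqp4 had the widest differences between genotype means. Gfap (ENSMUSG00000020932, GRCm38 chr11:102887336-102900912, minus strand) encodes the intermediate filament of astrocytes. Its level was 67.8, 328 and 63.4 CPM in Kmt2a+/+ libraries and 139, 191 and 98.1 CPM in Kmt2a+/LSL libraries. With nestin-Cre it was at 47.1, 313 and 269 CPM in the controls and at 87.7, 52.6 and 83.2 CPM after removal of the cassette. The 3 highest values were those of 1 Kmt2a+/+ and 2 Nes-Cre+/- Kmt2a+/+ libraries, and the 3 Nes-Cre+/- Kmt2a+/LSL libraries all lay below the 3 Kmt2a+/LSL libraries. The 3 libraries with the highest Gfap also had the lowest levels of the progenitor marker Nes, 316, 395 and 355 CPM, where the other 9 were at 422 to 758 CPM. The part of progenitor content in the levels of Gfap and Aqp4 was not tested. Group means were 153 ± 152 CPM in Kmt2a+/+, 143 ± 46.4 CPM in Kmt2a+/LSL, 209.6 ± 143 CPM in the nestin-Cre controls and 74.5 ± 19.1 CPM after cassette removal (SD, 3 libraries). Aqp4 (ENSMUSG00000024411, chr18:15389496-15410982, minus strand) was at 7.14, 106 and 27.5 CPM in Kmt2a+/+ libraries and 44.3, 42.1 and 24.3 CPM in Kmt2a+/LSL libraries. The nestin-Cre controls had 13.98, 67.9 and 85.0 CPM and the libraries with the removed cassette 17.98, 14.2 and 16.6 CPM. The same 3 libraries were high for Aqp4, and again every Nes-Cre+/- Kmt2a+/LSL library was below every Kmt2a+/LSL library. Its group means were 46.8 ± 52.1 CPM in Kmt2a+/+, 36.9 ± 11.0 CPM in Kmt2a+/LSL, 55.6 ± 37.1 CPM in the nestin-Cre controls and 16.3 ± 1.89 CPM after cassette removal (SD, 3 libraries), so the Nes-Cre+/- Kmt2a+/LSL group had the lowest mean and the smallest SD, although replicate 1 of Kmt2a+/+ and replicate 1 of the nestin-Cre controls were lower than any of its libraries.

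S100b (ENSMUSG00000033208, chr10:76253853-76261159, plus strand), which encodes a calcium-binding protein, varied least of the 10 genes, with a ratio of 1.94 between the highest and the lowest library. Its level was 28.7, 46.4 and 29.8 CPM in Kmt2a+/+ libraries and 32.2, 51.8 and 45.8 CPM in Kmt2a+/LSL libraries. Values of 30.3, 32.2 and 26.7 CPM were found in the nestin-Cre controls and of 42.0, 39.5 and 36.5 CPM after cassette removal. Here the 3 Nes-Cre+/- Kmt2a+/LSL libraries were all above the 3 Nes-Cre+/- Kmt2a+/+ libraries, while the groups without nestin-Cre overlapped. The opposite order of S100b and of Gfap and Aqp4 in these nestin-Cre groups is a description of 3 libraries each.

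The metabolic enzymes Aldh1l1 (ENSMUSG00000030088, chr6:90486427-90600203, plus strand) and Aldoc (ENSMUSG00000017390, chr11:78322968-78327781, plus strand) had the most similar profiles across libraries. Aldh1l1 was at 227 CPM in Kmt2a+/+ replicate 1 and 429 to 1016 CPM elsewhere, and Aldoc at 228 CPM in that library and 436 to 1348 CPM elsewhere. After centring each gene on its own mean, the root mean square difference between their log2 CPM over 12 libraries was 0.187, the smallest of the 45 pairs among the 10 genes. For Aldh1l1 the group means were 697 ± 416 CPM in Kmt2a+/+, 805 ± 65.5 CPM in Kmt2a+/LSL, 752 ± 143 CPM in the nestin-Cre controls and 614 ± 208 CPM after cassette removal (SD, 3 libraries). For Aldoc they were 816 ± 562 CPM in Kmt2a+/+, 758 ± 172 CPM in Kmt2a+/LSL, 803 ± 199.6 CPM in the nestin-Cre controls and 611 ± 161 CPM after cassette removal (SD, 3 libraries). In both genes the means of the 4 genotypes lay within the SD of the Kmt2a+/+ group. Annotated exons of other genes overlap 11.1% of the Aldh1l1 exon bases on the opposite strand and 2.33% on the same strand, and those genes were not in the table analysed here.

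The membrane proteins of the panel are the glutamate transporter encoded by Slc1a2 (ENSMUSG00000005089, chr2:102658659-102790784, plus strand) and the main gap junction connexin of astrocytes encoded by Gja1 (ENSMUSG00000050953, chr10:56377330-56402513, plus strand). Slc1a2 ranged from 529 CPM in Kmt2a+/+ replicate 3 to 1433 CPM in Kmt2a+/+ replicate 2. The means of its 4 genotypes lay between 799 and 861 CPM, closer to each other than the libraries within any one genotype. Gja1 ranged from 131 CPM in Nes-Cre+/- Kmt2a+/+ replicate 1 to 352 CPM in Kmt2a+/+ replicate 2, with group means of 232 ± 109.9 CPM in Kmt2a+/+, 248 ± 57.6 CPM in Kmt2a+/LSL, 209 ± 73.1 CPM in the nestin-Cre controls and 187 ± 32.0 CPM after cassette removal (SD, 3 libraries). The 2 genes formed the second closest pair, with a root mean square difference of 0.205 on the centred log2 scale. Neither had its low value in Kmt2a+/+ replicate 1, unlike the enzymes and the secreted proteins.

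Apoe, Clu and Agt encode secreted proteins: the lipid carrier apolipoprotein E, the extracellular chaperone clusterin and the hormone precursor angiotensinogen. Apoe (ENSMUSG00000002985, chr7:19696109-19699188, minus strand) was at 233, 3409 and 1220.5 CPM in Kmt2a+/+ libraries and 595, 1330.0 and 1072 CPM in Kmt2a+/LSL libraries. With nestin-Cre it was at 908, 1467 and 1843 CPM in the controls and at 566, 1388 and 1489 CPM after removal of the cassette. Its ratio of highest to lowest library was 14.6, both ends lying within Kmt2a+/+, and 6.02 without Kmt2a+/+ replicate 1. Clu (ENSMUSG00000022037, chr14:65968483-65981547, plus strand) ranged from 48.4 to 145 CPM, with group means of 90.3 ± 49.3 CPM in Kmt2a+/+, 81.0 ± 11.45 CPM in Kmt2a+/LSL, 101.1 ± 38.9 CPM in the nestin-Cre controls and 71.4 ± 15.1 CPM after cassette removal (SD, 3 libraries). Agt (ENSMUSG00000031980, chr8:124556534-124569706, minus strand) was at 13.98, 91.8 and 70.0 CPM in Kmt2a+/+ libraries and 55.2, 80.9 and 90.2 CPM in Kmt2a+/LSL libraries. The nestin-Cre controls had 44.6, 69.4 and 72.1 CPM and the libraries with the removed cassette 60.5, 63.3 and 58.9 CPM. Apart from the low value in Kmt2a+/+ replicate 1, its 11 libraries lay within a ratio of 2.06, and the 3 Nes-Cre+/- Kmt2a+/LSL libraries were nearly equal. All 3 genes had a high GC content, at 59.5% for Apoe, 55.6% for Clu and 56.3% for Agt, against 41.4% for Aqp4 and 42.2% for Gja1. All 3 were lowest in Kmt2a+/+ replicate 1, as were Aldh1l1 at 54.4%, Aldoc at 51.9% and Aqp4. Gfap at 55.5%, S100b at 48.3%, Slc1a2 at 45.3% and Gja1 were not lowest in that library. The part of GC content in the low values of Kmt2a+/+ replicate 1 was not tested beyond the adjustment given with that library.

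**Figure D3:**
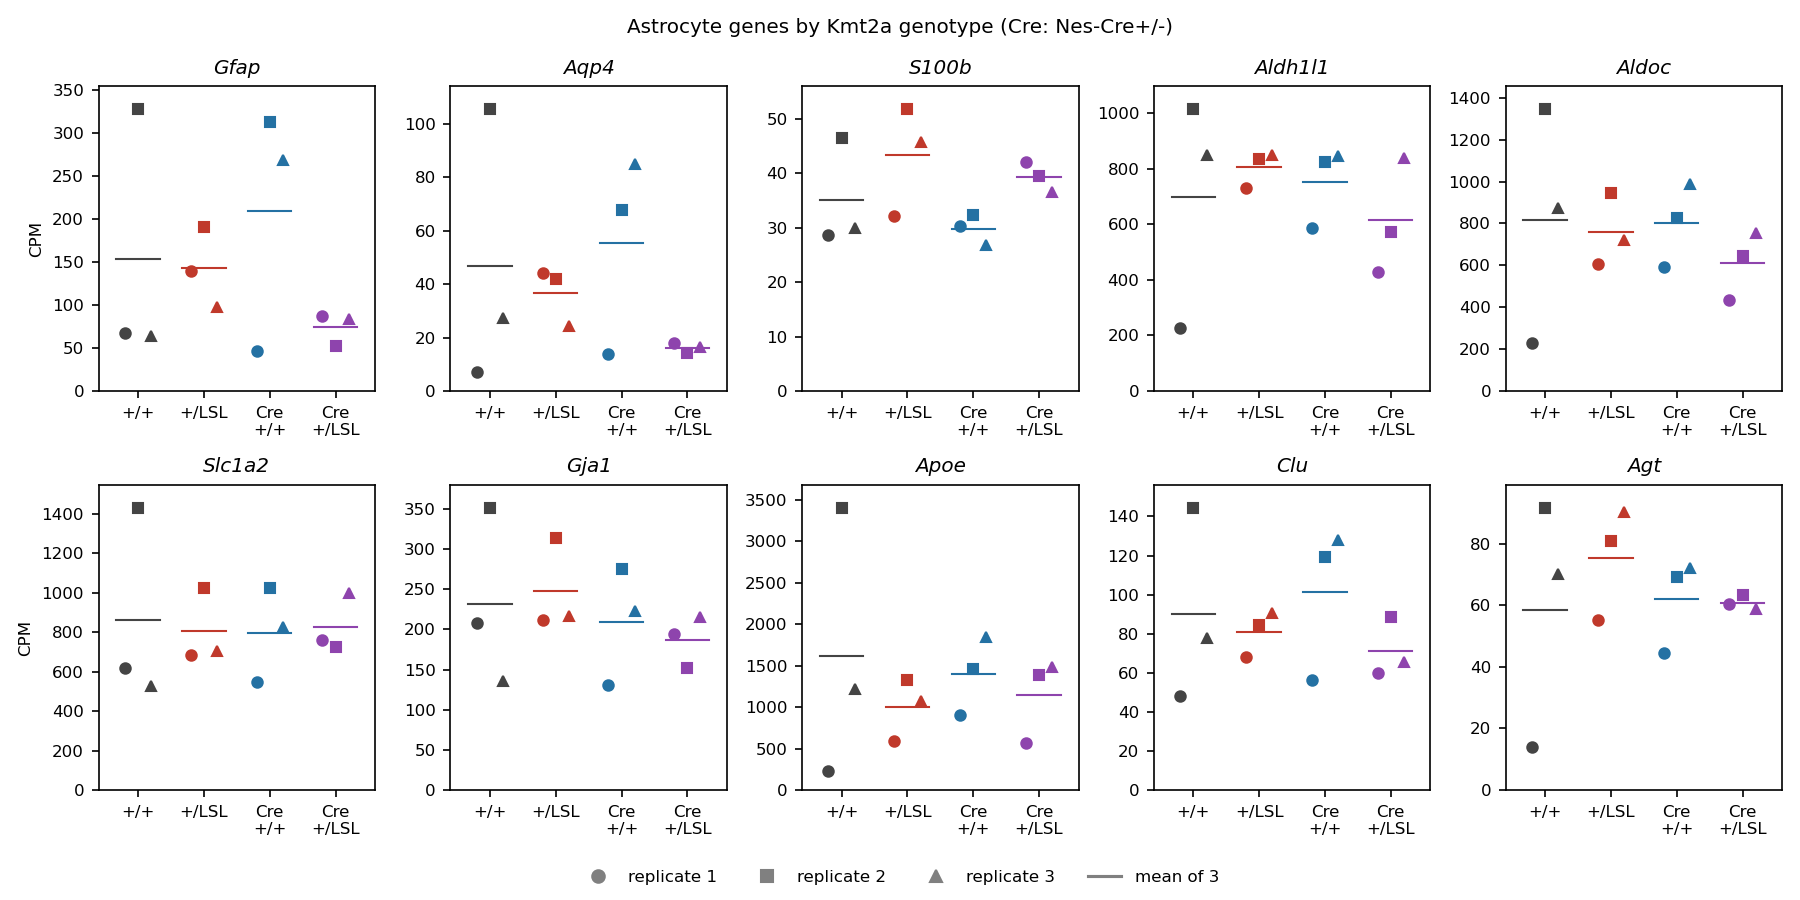
CPM of each of the 10 genes by genotype; each point is 1 library and each bar the mean of 3, on a linear axis from 0 for each gene. The Kmt2a+/+ points are spread widest for most genes, and the 3 Nes-Cre+/- Kmt2a+/LSL points of Gfap and Aqp4 lie together below the Kmt2a+/LSL points.

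Promoter sequence was taken from RefSeq for the windows from 250 bases before to 50 bases after each annotated start on GRCm38.p6. Of the 10 genes, 8 matched, with 11 windows between them, and Aqp4 and Clu had no entry. The STAT palindrome TTCNNNGAA was found in windows of Agt, Aldoc and Gfap, 3 of 11, against 8.30% of all 32851 windows. TATAAA was found in windows of Agt and Apoe, 2 of 11, against 13.6% of all windows, and neither the full nuclear factor I palindrome nor the cyclic AMP response element TGACGTCA was found in any of the 11. Both strands were searched, the motifs do not overlap one another in these windows, and a match is a description of letters, not of a bound site. The 11 windows held a median of 8 CpG dinucleotides against 7 over all windows, with 1 in Agt and Slc1a2, 3 in Gfap and S100b, and 10 to 12 in the windows of Apoe. The bases before the start are shown for Agt, the gene with the most matches, and for Gfap, the defining gene of the panel, each on its own strand from 5′ to 3′ and with matches in capitals. In Agt the capitals mark the TTCNNNGAA match that begins 172 bases before the start and the TATAAA match that begins 30 bases before it. The match in the Gfap window lies after the start, outside the bases shown.
Agt, chr8:124569707-124569956, minus strand: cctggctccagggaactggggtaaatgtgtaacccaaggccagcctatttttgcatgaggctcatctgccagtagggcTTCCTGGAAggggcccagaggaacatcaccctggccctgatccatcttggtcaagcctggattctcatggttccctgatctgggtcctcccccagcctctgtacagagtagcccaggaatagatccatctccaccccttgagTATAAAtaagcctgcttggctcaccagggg
Gfap, chr11:102897201-102897450, minus strand: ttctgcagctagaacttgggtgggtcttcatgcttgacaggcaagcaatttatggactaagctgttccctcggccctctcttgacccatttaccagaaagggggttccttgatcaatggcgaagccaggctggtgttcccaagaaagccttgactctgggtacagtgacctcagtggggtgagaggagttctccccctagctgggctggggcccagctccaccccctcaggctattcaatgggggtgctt

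Variation between replicate libraries was larger for the astrocyte genes than for genes in general. Among the 12545 genes with a mean of at least 1 CPM, the median range of log2 CPM over 12 libraries was 1.301, and among the 10 astrocyte genes it was 2.36. Without Kmt2a+/+ replicate 1 the medians were 0.793 and 1.43, and without replicates 1 and 2 they were 0.756 and 1.18. Within genotypes, the median SD of log2 CPM of the astrocyte genes was 1.26 in Kmt2a+/+ and 0.340 in Kmt2a+/LSL, and with nestin-Cre it was 0.490 in the controls and 0.274 after cassette removal. Over all genes the same measure was 0.607, 0.163, 0.125 and 0.245, so the 2 medians were closest in Nes-Cre+/- Kmt2a+/LSL. No test was made of these medians.

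Most of the panel was lowest in one Kmt2a+/+ library and highest in another. Kmt2a+/+ replicate 1 had the lowest value of Aqp4, Aldh1l1, Aldoc, Apoe, Clu and Agt, and all 10 genes were below their mean in the other libraries, with a median log2 difference of −1.27. With an adjustment for GC content, 8 of 10 were below and the median was −0.75. Other lists also stood apart in this library. Of 10 oligodendrocyte lineage markers 8 were lowest there, with a sum of 1278 CPM against 3678 to 5875 CPM elsewhere. Neural progenitor markers had their highest sum there, 13197 CPM against 5168 to 8112 CPM elsewhere. Kmt2a+/+ replicate 2 had the highest value of every gene except S100b, with a median log2 difference of 0.92. The 10 genes together took 0.155% of all counts in replicate 1, 0.816% in replicate 2 and 0.395% in replicate 3 of Kmt2a+/+, against 0.261% to 0.539% in the other 9 libraries. The library with the lowest share thus had the highest Mki67 level, and that with the highest share had the lowest, and the part of cell division or GC content in these levels was not tested. Among the other genotypes, Nes-Cre+/- Kmt2a+/+ replicate 1 was below the mean of the other libraries for 10 of 10 genes, by a median of −0.51 on the log2 scale.

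**Figure D4:**
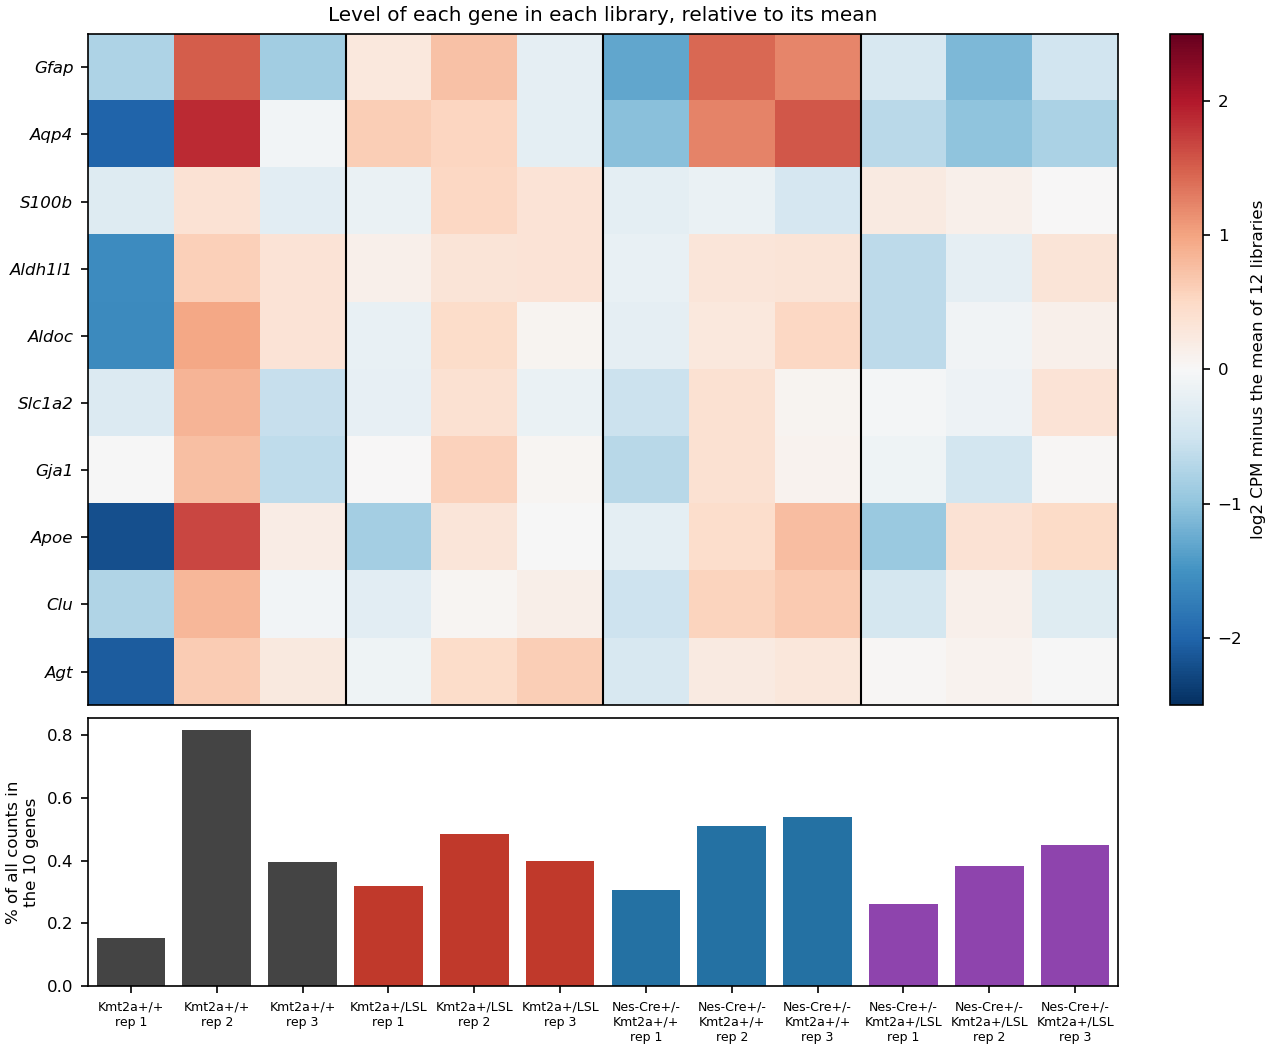
Upper panel: log2 CPM of each gene in each of 12 libraries minus its mean over the 12, from blue (lower) to red (higher). Lower panel: share of all counts of a library that falls on the 10 genes, in percent; Kmt2a+/+ replicate 1 is lowest at 0.155% and replicate 2 highest at 0.816%.

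The first comparison asked whether the interrupted allele changes the astrocyte genes. Between Kmt2a+/LSL and Kmt2a+/+, 4 of 10 genes were higher (Aldh1l1, Agt, S100b and Gja1), where 50.1% of all 17076 genes were higher, and the median log2 fold change was −0.10. The widest differences were those of Apoe, with a log2 fold change of −0.70 (SE 0.72, 95% interval −2.27 to 0.88, unadjusted p = 0.352), and Agt, with 0.36 (SE 0.49, 95% interval −0.72 to 1.45, unadjusted p = 0.477). Gfap differed by −0.10 (SE 0.70, 95% interval −1.65 to 1.44, unadjusted p = 0.886) and S100b by 0.31 (SE 0.23, 95% interval −0.20 to 0.81, unadjusted p = 0.213). In edgeR's quasi-likelihood test with Benjamini-Hochberg adjustment, 0 of 10 astrocyte genes and 0 of 17076 genes (0.0%) had an adjusted p under 0.05. None of the 10 was among the 306 genes (1.79%) whose unadjusted p was under 0.05, among the 7 genes (0.0411%) called by DESeq2's Wald test or among the 26 (0.153%) called after rescaling its z-scores to an empirical null. No gene of the panel had groups that did not overlap, against 4.05% of all genes. The direction turned on single Kmt2a+/+ libraries: 10 of 10 genes were higher in Kmt2a+/LSL without Kmt2a+/+ replicate 2 and 2 of 10 without replicate 1. Without replicate 2, Gfap differed by 1.12 and S100b by 0.56 (unadjusted p = 0.0292, adjusted p = 0.904), and without replicate 1 Apoe differed by −1.21 (unadjusted p = 0.0310, adjusted p = 0.551). Over all alternatives the adjusted p of S100b lay between 0.457, with Kmt2a+/+ replicate 3 as the only wild type library, and 1 and that of Apoe between 0.551 and 1. The 95% intervals of Gfap and Aqp4 include differences of 1 log2 unit in either direction.

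Nestin-Cre alone was assessed by comparing Nes-Cre+/- Kmt2a+/+ with Kmt2a+/+, which shares its control libraries with the first comparison. Here 5 of 10 genes were higher (Gfap, Clu, Aqp4, Aldh1l1 and Agt), where 52.0% of all genes were higher, and the median log2 fold change was 0.029. Gfap differed by 0.45 (SE 0.70, 95% interval −1.09 to 2.00, unadjusted p = 0.534) and Aqp4 by 0.25 (SE 0.79, 95% interval −1.48 to 1.97, unadjusted p = 0.759). None of the 10 genes passed the test or an unadjusted p under 0.05, which 0 (0.0%) and 239 (1.4%) of all genes did, and DESeq2's Wald test and its empirical null called 3 genes each (0.0176%), none of them in the panel. All 10 genes had overlapping groups, against 4.35% of all genes that did not overlap. Without Kmt2a+/+ replicate 2 all 10 genes were higher in Nes-Cre+/- Kmt2a+/+, among them Gfap at 1.68 (unadjusted p = 0.0255, adjusted p = 0.843), and without replicate 1 it was 1 of 10. Leaving out Nes-Cre+/- Kmt2a+/+ replicate 1 gave 9 of 10 and leaving out its replicate 3 gave 2 of 10.

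Removal of the cassette was assessed by comparing Nes-Cre+/- Kmt2a+/LSL with Kmt2a+/LSL, a comparison without the Kmt2a+/+ libraries that shares Kmt2a+/LSL with the first. Of the 10 genes 2 were higher after removal (Apoe and Slc1a2), where 50.4% of all genes were higher, and the median log2 fold change was −0.31. Aqp4 differed by −1.18 (SE 0.80, 95% interval −2.94 to 0.57, unadjusted p = 0.167) and Gfap by −0.94 (SE 0.71, 95% interval −2.50 to 0.62, unadjusted p = 0.213) on the log2 scale. Gja1 followed at −0.41 (SE 0.35, 95% interval −1.18 to 0.37, unadjusted p = 0.274), Aldh1l1 at −0.39, and Aldoc, Agt, Clu and S100b at −0.31 to −0.14. None of the 10 passed the edgeR test, which called 0 of all genes (0.0%), and none had an unadjusted p under 0.05, against 275 genes (1.61%), while DESeq2's Wald test called 7 genes (0.0411%), none of them in the panel. Gfap and Aqp4 were 2 of 10 genes whose groups did not overlap, both lower (two-sided exact permutation test, p = 0.1 for each, the smallest p that 3 libraries against 3 allow). Over all genes 7.1% did not overlap and 3.57% were lower without overlap. A fit without the Kmt2a+/+ libraries, chosen after the data were seen, left the log2 fold changes almost as they were, and Aqp4 then had an unadjusted p of 0.0392 among 655 genes (3.93%) and an adjusted p of 1, where 1 gene outside the panel was called (0.006%). With DESeq2 z-scores rescaled to an empirical null, Aqp4 had an adjusted p of 0.0306, as 1 of 935 genes called (5.49%), and Gfap one of 0.0767. Over the alternatives the adjusted p of both reached 1. Leaving out 1 library at a time gave log2 fold changes of −1.41 to −1.03 for Aqp4 and −1.15 to −0.67 for Gfap.

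With nestin-Cre held constant, Nes-Cre+/- Kmt2a+/LSL against Nes-Cre+/- Kmt2a+/+ gave the widest differences of the panel. Gfap was at a mean of 74.5 ± 19.1 CPM against 209.6 ± 143 CPM (SD, 3 libraries), a log2 fold change of −1.49 (SE 0.72, 95% interval −3.07 to 0.085, unadjusted p = 0.0615). Aqp4 was at 16.3 ± 1.89 CPM against 55.6 ± 37.1 CPM (SD, 3 libraries), a log2 fold change of −1.77 (SE 0.81, 95% interval −3.56 to 0.0064, unadjusted p = 0.0507). In both genes Nes-Cre+/- Kmt2a+/+ replicates 2 and 3 lay far above the nestin-Cre libraries with the removed cassette, but replicate 1 lay below all 3 of them, so the groups overlapped. S100b had the opposite direction at 0.40 (SE 0.23, 95% interval −0.11 to 0.91, unadjusted p = 0.110), with no overlap between groups (exact permutation test, two-sided p = 0.1, which no arrangement of 3 and 3 libraries can go below), where 6.68% of all genes did not overlap and 3.1% were higher without overlap. Clu differed by −0.50 (SE 0.39, 95% interval −1.35 to 0.35, unadjusted p = 0.220) and the other 6 genes by −0.39 to 0.054. Over the panel 2 of 10 genes were higher (Slc1a2 and S100b), against 50.9% of all genes, with a median of −0.29. None of the 10 passed the edgeR test, which called 0 genes (0.0%), and none had an unadjusted p under 0.05, against 190 genes (1.11%), while DESeq2's Wald test called 3 genes (0.0176%), none of them in the panel. Without the Kmt2a+/+ libraries the unadjusted p was 0.0197 for Gfap, 0.00554 for Aqp4 and 0.0380 for S100b, 3 of 10 genes against 3.22% of all genes, with an adjusted p of 0.999 for each and 0 genes called (0.0%). The empirical null gave an adjusted p of 0.0126 for Gfap and 0.00472 for Aqp4, where it called 241 genes (1.41%), and the highest adjusted p over the alternatives was 1 for both. Leaving out Nes-Cre+/- Kmt2a+/+ replicate 1 gave a log2 fold change of −1.97 for Gfap and −2.23 for Aqp4. The log2 fold changes nearest to 0 were −1.08 for Gfap without replicate 2 of that genotype and −1.33 for Aqp4 without its replicate 3. The comparison shares its Nes-Cre+/- Kmt2a+/LSL libraries with the removal of the cassette and its controls with the nestin-Cre comparison.

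An interaction term tested whether the genotype with the LSL allele differed from its control by another amount in the nestin-Cre libraries than in the libraries lacking Cre. It was −1.39 (SE 1.00, 95% interval −3.58 to 0.80, unadjusted p = 0.192) for Gfap and −1.43 (SE 1.12, 95% interval −3.89 to 1.03, unadjusted p = 0.227) for Aqp4 on the log2 scale. Apoe lay on the other side at 0.41 (SE 1.01, 95% interval −1.81 to 2.62, unadjusted p = 0.696), and the remaining 7 genes were between −0.50 and 0.15. Of the 10 genes 3 were positive (Apoe, Slc1a2 and S100b) against 49.8% of all genes, none passed the test, which called 0 genes (0.0%), and none had an unadjusted p under 0.05, against 295 genes (1.73%). For this term DESeq2's Wald test called 10 genes (0.0587%) and its empirical null 14 (0.0822%), none of them in the panel. Without Kmt2a+/+ replicate 2 the values were −2.61 for Gfap (unadjusted p = 0.0107) and −2.86 for Aqp4 (unadjusted p = 0.0124), with an adjusted p of 0.929 for both, and 0 of 10 genes were positive. Without Kmt2a+/+ replicate 1 they were −1.04 for Gfap (unadjusted p = 0.301) and −0.93 for Aqp4 (unadjusted p = 0.302), with an adjusted p of 0.995 for both, and 5 of 10 genes were positive. The F-test over the 4 genotypes gave S100b the smallest p of the panel at 0.174, then Aqp4 at 0.221 and Gfap at 0.281, and the other 7 genes lay between 0.617 and 0.990. That test called 0 genes (0.0%), with 197 (1.15%) at an unadjusted p under 0.05 and none of the 10 among them. Without Kmt2a+/+ replicate 1 Aqp4 had an unadjusted p = 0.0360 (adjusted p = 0.829), where 908 genes (5.35%) were under 0.05. Without replicate 2 it was S100b with an unadjusted p = 0.0465 and Gfap with an unadjusted p = 0.0475 (adjusted p = 1 for both), where 286 genes (1.69%) were under 0.05. On all 12 libraries DESeq2's likelihood ratio test called 5 genes (0.0293%), none of them in the panel.

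**Figure D5:**
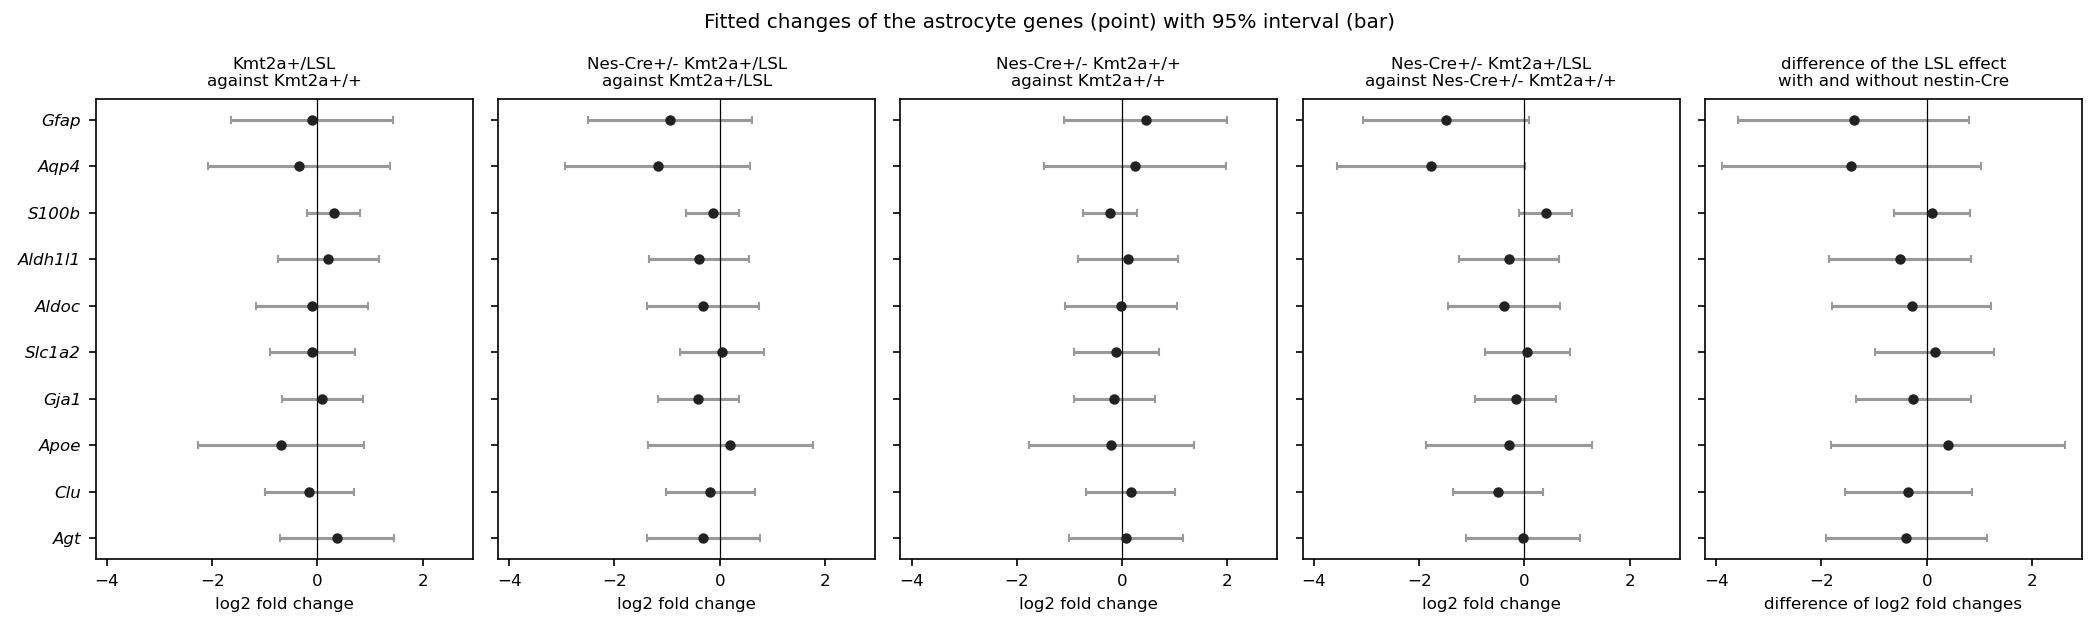
Log2 fold change of each of the 10 genes (point) with its 95% interval (bar) from edgeR, for the comparisons between genotypes, with 0 marked by a line. Every interval includes 0, and the intervals of Gfap, Aqp4 and Apoe are the widest.

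Genes whose levels followed those of the most variable members were found by the root mean square difference of centred log2 CPM over 12 libraries, among 12545 genes. Emp1, a membrane protein gene induced in reactive astrocytes, was closest to Gfap at 0.284, where the median gene was at 1.01. Emp1 was at 19.0, 60.1 and 15.4 CPM in Kmt2a+/+ libraries and 28.2, 44.6 and 26.4 CPM in Kmt2a+/LSL libraries. Values of 12.6, 57.3 and 64.1 CPM were found in the nestin-Cre controls and of 20.5, 19.9 and 24.2 CPM after cassette removal. Its 3 highest values were in the same libraries as those of Gfap. The complement gene C4b followed at 0.487 and Aqp4 at 0.488. For Aqp4 the closest were C4b at 0.463, Gfap at 0.488 and Apcdd1, which encodes a Wnt inhibitor, at 0.496, against a median of 1.15. C4b has a near-identical copy, C4a, so its estimated counts are uncertain. Apoe was followed most closely by Gpr153 at 0.239, March3 at 0.265 and Mfge8, a secreted phagocytosis factor, at 0.281, against a median of 0.955. Mfge8 was at 87.9 CPM in Kmt2a+/+ replicate 1 and 1335 CPM in replicate 2, the same order as Apoe. These distances rest on libraries that share depth and composition and carry no test.

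The other astrocyte genes and the regulators of astrocyte formation were described by lists chosen with earlier results of these data known. Of 26 further astrocyte genes, all tested, 14 were lowest in Kmt2a+/+ replicate 1 and 20 highest in replicate 2, the same libraries as in the panel, and their summed level ranged from 9013 to 21857 CPM. In the comparison of the nestin-Cre genotypes 3 of 26 were higher, with a median log2 fold change of −0.19, beside 2 of 10 and −0.29 in the panel. In Kmt2a+/LSL against Kmt2a+/+ it was 9 of 26, after removal of the cassette 8 of 26 and with nestin-Cre alone 11 of 26. Without Kmt2a+/+ replicate 1, 3 of 26 were higher in Kmt2a+/LSL than in Kmt2a+/+ and 3 of 26 with nestin-Cre alone, and without replicate 2 it was 22 of 26 in each, so the direction of these counts depended on which Kmt2a+/+ library was left out. None of the 26 passed the edgeR test in any comparison, and 1, 2, 0 and 1 of them had an unadjusted p under 0.05 in the comparisons of Kmt2a+/LSL with Kmt2a+/+, cassette removal, nestin-Cre alone and the nestin-Cre genotypes, where the shares over all genes were 1.79%, 1.61%, 1.4% and 1.11%. These numbers were 6, 3, 3 and 3 of 26 without Kmt2a+/+ replicate 1, where 8.95%, 3.89%, 6.09% and 3.23% of all genes were under 0.05. Without replicate 2 they were 0, 3, 0 and 1 of 26, beside 3.52%, 1.64%, 4.45% and 1.15% of all genes, and none of the 26 passed the test in either fit. Sparc, which encodes a secreted matrix glycoprotein, had the smallest F-test p of this list. It was at 573, 769.5 and 555 CPM in Kmt2a+/+ libraries and 766, 722 and 605 CPM in Kmt2a+/LSL libraries. With nestin-Cre it was at 426, 788 and 1149 CPM in the controls and at 426, 389 and 484 CPM after removal of the cassette. The Nes-Cre+/- Kmt2a+/LSL libraries of Sparc lay below every Kmt2a+/LSL library, with a log2 fold change of −0.69 (unadjusted p = 0.0407, adjusted p = 1 in edgeR). Against Nes-Cre+/- Kmt2a+/+ it was −0.86 (unadjusted p = 0.0143, adjusted p = 1 in edgeR), though replicate 1 of that genotype overlapped. Htra1, a secreted protease gene, differed by −0.47 between Kmt2a+/LSL and Kmt2a+/+ (unadjusted p = 0.0403, adjusted p = 1 in edgeR). That value was −0.66 without Kmt2a+/+ replicate 1 (unadjusted p = 0.000779, adjusted p = 0.551) and −0.23 without replicate 2 (unadjusted p = 0.234, adjusted p = 0.904). The connexin gene Gjb6, one of the 2 genes counted for cassette removal, was at or below 0.187 CPM in all 12 libraries.

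The 25 regulators of astrocyte formation, which include the nuclear factor I genes, the JAK-STAT, BMP and Notch pathway genes and the coactivator Crebbp, summed to 5381 to 6273 CPM over 12 libraries, although single members varied widely. The Notch target Hes5 ranged from 2.14 to 159.5 CPM, Notch1 from 359 to 1223 CPM, Nfix from 182 to 737 CPM and Jak2 from 48.7 to 197 CPM, and 7 of the 25 were lowest in Kmt2a+/+ replicate 1. Of the 25 genes 11 were higher in Kmt2a+/LSL than in Kmt2a+/+, 11 after removal of the cassette, 14 with nestin-Cre alone and 9 between the nestin-Cre genotypes, with medians of −0.036, −0.011, 0.036 and −0.018. None passed the edgeR test in any comparison, and 0 of 25 had an unadjusted p under 0.05, where 1.11% to 1.79% of all genes did in the comparisons between genotypes. Without Kmt2a+/+ replicate 1 the numbers higher were 16 in Kmt2a+/LSL against Kmt2a+/+ and 15 with nestin-Cre alone, and without replicate 2 they were 12 and 12. Without replicate 1, 1, 4, 1 and 5 of 25 had an unadjusted p under 0.05 in these 4 comparisons, where 8.95%, 3.89%, 6.09% and 3.23% of all genes did. Nfia, a nuclear factor I gene needed for astrocyte formation, was at 291, 231 and 177 CPM in Kmt2a+/+ libraries and 192, 223 and 202 CPM in Kmt2a+/LSL libraries. The nestin-Cre controls had 194, 227 and 206 CPM and the libraries with the removed cassette 279, 230.0 and 308 CPM. Its log2 fold change after removal of the cassette was 0.41 (unadjusted p = 0.0592, adjusted p = 1 in edgeR). Crebbp differed by 0.41 and the cytokine receptor gene Lifr by 0.058 in the same comparison. Nfia and Crebbp thus had positive values where Gfap and Aqp4 had negative ones, and none of these differences passed the test.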

How the data were processed

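RNA-seq of 12 libraries of cultured mouse hippocampal progenitor cells was analysed, 3 for each of 4 genotypes taken from the labels. The authors pseudoaligned reads to the mm10 (GRCm38) transcriptome with kallisto 0.48.0 and summarised them to genes with tximport, and the deposited values are estimated counts in whole numbers, not normalized. The planned test assumed counts, and these values were used as they are. Genes whose counts summed to more than 10 and were above 0 in 2 or more libraries were fitted in edgeR 4.0.16 (R 4.3.3) with TMM factors, genotype as the only term and quasi-likelihood F-tests, with Benjamini-Hochberg adjustment over 17076 genes at 0.05. CPM values use the TMM library sizes, and lengths and GC content come from GRCm38 exons and transcripts. Of 18911 Ensembl identifiers 18718 matched a symbol. Totals of 18280008 to 28596919 counts put 3 counts at 0.105 to 0.164 CPM. No replicate pair agreed within sampling noise. Kallisto shares reads between similar or overlapping transcripts by estimation, so genes with close copies are less certain.

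Alternatives were DESeq2 1.42.0 (Wald test, size factors and an empirical null in place of the study's fdrtool step), limma 3.58.1 with voom quality weights, other filters, a replicate block, the 9 libraries without Nes-Cre+/- Kmt2a+/+ and leaving out each library. A GC offset, the 9 libraries without Kmt2a+/+ and Kmt2a+/+ replicate 3 alone as wild type were added after seeing the data. The fit was tested on simulated data with 200 genes changed 3-fold in Kmt2a+/LSL. It recovered 97% of them with a common dispersion of 0.05, but 54.5% with the dispersion estimated for each gene from these libraries. The members and lists were chosen with earlier results of these data known. Named genes were the 10 members, Kmt2a, the 3 genes of each list with the smallest F-test p, the 2 most abundant genes of each marker list, and the 3 genes closest to each of the 3 members with the widest range. Mki67, Nes, Dcx, Tubb3, Snap25, Hes5, Notch1, Nfix and Jak2 fall outside this rule and were chosen after their values were seen. In fits that leave 2 libraries in a genotype, and in that with Kmt2a+/+ replicate 3 as the only wild type library, the spread is pooled over genotypes, so a lone library is assumed to vary like the others.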

Additional observations from a re-analysis of the deposited data

How the results depend on the processing

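The result that 0 genes passed in edgeR kept its value with DESeq2 size factors, no filter, a minimum of 10 counts a library, the replicate block and the 9 libraries without Nes-Cre+/- Kmt2a+/+, but not with other tools. DESeq2's Wald test called 7 genes in Kmt2a+/LSL against Kmt2a+/+, 7 in cassette removal, 3 in nestin-Cre alone, 3 between the nestin-Cre genotypes and 10 in the interaction, and its likelihood ratio test called 5 over the 4 genotypes. The empirical null called 26, 935, 3, 241 and 14 in these 5 comparisons, among them Aqp4 in cassette removal (log2 fold change −1.17) and Gfap (−1.48) and Aqp4 (−1.76) between the nestin-Cre genotypes, which no other alternative called. The limma-voom fit called 2 genes in Kmt2a+/LSL against Kmt2a+/+, 2 in cassette removal and 2 in the F-test, and the GC offset 2, 1 and 1. In cassette removal, the 9 libraries without Kmt2a+/+ gave 1 gene, the same libraries with the Wald test 14, and Kmt2a+/+ replicate 3 alone as wild type 1, and the Wald test on 9 libraries gave 6 between the nestin-Cre genotypes. Leaving out 1 library gave 0 to 2 genes in Kmt2a+/LSL against Kmt2a+/+, 0 to 1 in cassette removal, 0 to 3 in the F-test and 0 to 0 elsewhere, the calls arising without Kmt2a+/+ replicate 1. The cause was not tested.

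The number of astrocyte genes with a higher mean, 4, 2, 5, 2 and 3 of 10 in the 5 comparisons, ranged over the fits without 1 library from 2 to 10, 0 to 3, 1 to 10, 1 to 4 and 0 to 5. In limma-voom it was 1 in Kmt2a+/LSL against Kmt2a+/+, 1 with nestin-Cre alone, 1 between the nestin-Cre genotypes and 5 in the interaction. With Kmt2a+/+ replicate 3 alone as wild type it was 7 in Kmt2a+/LSL against Kmt2a+/+ and 0 in the interaction. In the order of levels, 6 of 10 genes kept their place with the longest transcript. The ratio of the highest to the lowest summed level was 7.30 per kilobase and 4.91 in CPM. With Kmt2a+/+ replicate 3 alone as wild type, the log2 fold changes that reversed were Gfap at 1.16, Aqp4 at 0.42, Aldh1l1 at −0.087, Slc1a2 at 0.60 and Clu at 0.046 in Kmt2a+/LSL against Kmt2a+/+, Aldh1l1 at −0.19, Slc1a2 at 0.58, Gja1 at 0.61, Apoe at 0.19 and Agt at −0.19 in nestin-Cre alone, S100b at −0.13, Slc1a2 at −0.55 and Apoe at −0.0028 in the interaction. With limma-voom, the log2 fold changes that reversed were Aldh1l1 at −0.20, Gja1 at −0.069 and Agt at −0.13 in Kmt2a+/LSL against Kmt2a+/+, Aqp4 at −0.16, Aldh1l1 at −0.22, Clu at −0.086 and Agt at −0.29 in nestin-Cre alone, Slc1a2 at −0.081 in the nestin-Cre genotypes, Aldoc at 0.20 and Agt at 0.033 in the interaction. With the GC offset, the log2 fold changes that reversed were Clu at −0.041 in nestin-Cre alone, Agt at 0.074 in the nestin-Cre genotypes. Leaving out 1 library at a time turned the sign of 31 log2 fold changes, which ranged as follows: in Kmt2a+/LSL against Kmt2a+/+ Gfap −0.47 to 1.12, Aqp4 −0.84 to 1.09, Aldh1l1 −0.21 to 0.58, Aldoc −0.55 to 0.46, Slc1a2 −0.35 to 0.49, Gja1 −0.18 to 0.52, Apoe −1.21 to 0.46, Clu −0.45 to 0.36 and Agt −0.10 to 0.84, in cassette removal S100b −0.31 to 0.023, Slc1a2 −0.11 to 0.26 and Apoe −0.066 to 0.53, in nestin-Cre alone Aqp4 −0.27 to 1.68, S100b −0.36 to 0.025, Aldh1l1 −0.32 to 0.48, Aldoc −0.47 to 0.55, Slc1a2 −0.36 to 0.47, Gja1 −0.42 to 0.28, Apoe −0.72 to 0.95, Clu −0.14 to 0.68 and Agt −0.39 to 0.56, in the nestin-Cre genotypes Slc1a2 −0.16 to 0.27, Gja1 −0.41 to 0.081, Apoe −0.53 to 0.033 and Agt −0.22 to 0.10, in the interaction S100b −0.16 to 0.27, Aldoc −0.86 to 0.15, Slc1a2 −0.43 to 0.41, Gja1 −0.69 to 0.015, Apoe −0.75 to 0.91 and Agt −0.87 to 0.070. The cause was not tested. Of the log2 fold changes refitted on all libraries of a fit, 475 kept their direction and side of the threshold, 32 reversed and 3 passed the threshold.

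The labels give the replicate numbers 1 to 3 in each genotype but no shared litter or day. Deviations from the group means had a mean correlation of 0.130 over the 18 pairs with the same number (−0.129 to 0.556, 8 of 18 above 0.1) and −0.062 over the 36 other pairs, and 8 of 12 libraries correlated best with a library of their own number, a hint from the data and not the design. With the replicate number as a block, 0 genes were called in each comparison, as without it, and 7 of 10 astrocyte genes were higher in Kmt2a+/LSL than in Kmt2a+/+. With the replicate number as a block, the log2 fold changes that reversed were Gfap at 0.18, Aqp4 at 0.15 and Aldoc at 0.10 in Kmt2a+/LSL against Kmt2a+/+, Aldoc at 0.17 and Apoe at 0.26 in nestin-Cre alone, Agt at 0.055 in the nestin-Cre genotypes, Apoe at −0.11 in the interaction.

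With 3 libraries a genotype and a common biological coefficient of variation of 0.368, or 0.224 without the Kmt2a+/+ libraries, the spread between libraries sets the precision of these genes. Depth does not, since the lowest value was 7.14 CPM where 3 counts are at most 0.164 CPM.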

Other observations

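Of 20 genes induced in reactive astrocytes 19 were tested, and their summed level was 2107 to 3445 CPM over 12 libraries. The largest part was Vim at 1720 to 2864 CPM, followed by Cp at 130 to 294 CPM and Cd44 at 72.4 to 159 CPM. Only 13 of the 19 had a mean of at least 1 CPM, so the counts of direction include genes of very low level. In Kmt2a+/LSL against Kmt2a+/+ 8 of 19 were higher, after cassette removal 10, with nestin-Cre alone 9 and between the nestin-Cre genotypes 8, and none passed the edgeR test. Without Kmt2a+/+ replicate 1 the counts for Kmt2a+/LSL and for nestin-Cre alone were 11 and 14, and without replicate 2 they were 8 and 9. Gbp2, an interferon-induced GTPase gene, was at 2.77, 2.76 and 3.19 CPM in Kmt2a+/LSL and 1.94, 1.76 and 1.73 CPM after cassette removal, a log2 fold change of −0.68 (unadjusted p = 0.0378, adjusted p = 1 in edgeR). Emp1, which followed Gfap most closely, had a log2 fold change of −1.05 between the nestin-Cre genotypes (unadjusted p = 0.103, adjusted p = 1 in edgeR). Ptx3, a secreted pattern recognition gene, was at 0.847 to 2.02 CPM over 12 libraries.

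Genes of lipid carriage, the process that Apoe and Clu serve, were all measured. The 13 genes summed to 1069 CPM in the lowest library and 3140.0 CPM in the highest, both of them Kmt2a+/+, as for Apoe itself. In Kmt2a+/LSL against Kmt2a+/+ 6 of 13 were higher, after cassette removal 5, with nestin-Cre alone 7 and between the nestin-Cre genotypes 2, and none passed the edgeR test. For lipid carriage the counts against Kmt2a+/+ were 3 and 3 without its replicate 1, and 9 and 9 without replicate 2. Lpl, which encodes lipoprotein lipase, had the smallest F-test p of the list. It was at 22.4, 7.67 and 6.83 CPM in Kmt2a+/+ libraries and 9.74, 6.17 and 9.95 CPM in Kmt2a+/LSL libraries. Values of 9.23, 9.28 and 9.89 CPM were found in the nestin-Cre controls and of 17.8, 13.0 and 12.7 CPM after cassette removal. The nestin-Cre groups of Lpl differed by 0.61 on the log2 scale (unadjusted p = 0.158, adjusted p = 1 in edgeR). Lrp2, an endocytic lipoprotein receptor gene, differed by −0.47 and Nr1h3, which encodes the liver X receptor alpha, by −0.40 in the same comparison.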
